A study of Mus musculus with 4 samples.

Results

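The interferon-inducible GTPases described here are 4 guanylate-binding proteins (GBPs), Gbp2, Gbp3, Gbp6 and Gbp7, and 6 immunity-related GTPases (IRGs), Igtp, Irgm1, Irgm2, Tgtp1, Tgtp2 and Iigp1. They were taken by gene name from a table of 53465 genes, and each of the 10 names stood on 1 row. All are protein coding. On build GRCm38, Gbp7 (3:142530342-142550149), Gbp3 (3:142560026-142573209) and Gbp2 (3:142620602-142638008) follow each other on chromosome 3, and Gbp6 lies at 5:105270702-105293698. Irgm1 (11:48861968-48871683), Tgtp1 (11:48985327-48994172), Tgtp2 (11:49057194-49064206), Igtp (11:58199556-58207591) and Irgm2 (11:58199618-58222782) lie on chromosome 11, and Iigp1 at 18:60376029-60392627. The table holds RNA sequencing counts of splenic CD8+ T cells, purified and then kept for 24 h with beads that carry anti-CD3 and anti-CD28. The 2 groups are wild type (WT) and PP2Cm-/- (PP2Cm KO), with 2 biological replicates each. PP2Cm is the mitochondrial phosphatase, encoded by Ppm1k, that activates breakdown of branched-chain ketoacids. The labels give no strain, age or sex of the mice, no description of the knockout allele, and do not say whether mice were pooled.

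The genotype field and title of each library name 1 genotype and its description code starts with the other one. The grouping used here is that of genotype field and title, written as labelled WT and labelled KO. Ppm1k counts were 102 and 94 under the WT label and 157 and 206 under the KO label, so the gene named by the knockout lay higher under the KO label. Its log2 fold change was 0.97 (SE 0.23, adjusted p = 0.186 by edgeR). A count per gene cannot tell whether reads came from deleted exons. Every direction would turn if the codes named the genotype.

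GBPs and IRGs are dynamin-like and smaller GTPases that interferon gamma induces in most mouse cells, through the receptor chains Ifngr1 and Ifngr2, the kinases Jak1 and Jak2, and transcription factors such as Irf1. They gather on the membranes of vacuoles that hold intracellular parasites and bacteria, and help to break them open. Among the IRGs, Igtp (also called Irgm3), Irgm1 and Irgm2 regulate the others and protect host membranes, while Tgtp1 and Tgtp2 (Irgb6) and Iigp1 (Irga6) act as effectors on the vacuole. T cells express these genes too: Tgtp was named for a T cell specific GTPase, and loss of Irgm1 is known to impair survival of activated CD4+ T cells exposed to interferon gamma.

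Promoter sequence was examined because all these genes are known interferon targets. RefSeq promoter windows (GRCm38.p6, 250 bases before to 50 after the start) were found for 8 of the 10 genes, and Gbp6 and Iigp1 had no entry. Both strands were searched for the core of the interferon-stimulated response element (ISRE), GAAA followed after any 2 bases by GAAA, which IRF1 is known to bind, and for the gamma-activated site (GAS), TTCNNNGAA, a known element of interferon gamma targets. The ISRE core was present in 8 of the 8 genes and the GAS in 5 of 8, against 3.44% and 8.3% of 32841 promoter windows of the same length. A gene was counted if any of its windows matched. Of 9 other GBP and IRG genes with an entry, 5 had the ISRE core and 3 the GAS. The GAS pattern is its own reverse complement, so only the ISRE core has a direction. In Igtp, Irgm2, Tgtp1 and Tgtp2 a GAS stood 2 bases before an ISRE core that read along the gene's strand. This arrangement was searched for in all windows after it had been seen, and it occurred in 5 of the 32841 windows, those of these 4 genes and of their relative Gm12185. The 4 stretches are shown 5′ to 3′ along the gene's strand, with the GAS and the ISRE core in capitals. A match describes letters and does not show binding.
Igtp, chr11:58199496-58199555, plus strand: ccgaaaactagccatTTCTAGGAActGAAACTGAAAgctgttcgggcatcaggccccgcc
Irgm2, chr11:58214887-58214946, plus strand: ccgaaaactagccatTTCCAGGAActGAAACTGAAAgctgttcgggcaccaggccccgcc
Tgtp1, chr11:48992290-48992349, minus strand: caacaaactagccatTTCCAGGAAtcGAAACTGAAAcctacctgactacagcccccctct
Tgtp2, chr11:49064249-49064308, minus strand: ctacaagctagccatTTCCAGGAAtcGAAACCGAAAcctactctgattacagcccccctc

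The GBP genes of chromosome 3 and Irgm1 carried other arrangements, shown with their matches in capitals. Gbp7 had 2 GAS matches upstream of an ISRE core that read along the strand opposite to the gene. Gbp3 and Irgm1 each had a pair of ISRE cores that overlap by 4 bases, and Gbp2 had 1. No GAS was matched in the windows of Gbp2, Gbp3 and Irgm1. A further RefSeq start of Gbp3 had neither motif in its window. RefSeq starts can differ from the gene spans given above: the stretches of Irgm1, Irgm2 and Tgtp1 lie inside those spans. In GENCODE M21 all 30 bases shown for Irgm1, and 14 of the 30 for Gbp2, are annotated as exon.
Gbp7, chr3:142530215-142530296, plus strand: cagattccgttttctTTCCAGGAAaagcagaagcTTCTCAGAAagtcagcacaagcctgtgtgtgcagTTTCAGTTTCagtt
Gbp3, chr3:142559987-142560016, plus strand: gtcaggacacagTTTCAGTTTCTATTTCcc
Gbp2, chr3:142620586-142620615, plus strand: agttaggaactcttttagTTTCACTTTCac
Irgm1, chr11:48871433-48871462, minus strand: agcctgtttcaaGAAATAGAAACCGAAAct

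All 10 genes had a negative fitted log2 fold change, labelled KO minus labelled WT, where 51.9% of the 13528 genes tested were negative. The median over the 10 was −0.51, beside −0.01 over all genes tested. None of the 10 passed the threshold (adjusted p below 0.05 over all genes tested, edgeR's quasi-likelihood test), which 0.207% of all genes passed. At an unadjusted p below 0.05, 7 of 10 were lower and 0 higher, where 7.23% of all genes were lower. DESeq2 called Gbp2 and Gbp3 lower, 2 of 10, where it called 1.26% of genes lower. In 8 of 10 genes both libraries labelled KO lay below both labelled WT, where 23.3% of all genes did. The genes are known to respond to the same signals, so they are not independent of each other. They were also chosen with earlier results of these data known, so these shares are a description and no test. Bulk RNA cannot tell fewer cells expressing a gene from less RNA per cell.

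Levels are given library by library in CPM, the count as a share of the library's TMM-scaled total, which makes libraries of unequal depth comparable. The sum of the 10 genes was 2302 and 1854 CPM under the WT label and 1616 and 1473 CPM under the KO label, 1.35-fold lower on average. The 4 GBP genes summed to 826 and 553 against 444 and 437 CPM. The 6 IRG genes summed to 1477 and 1300.5 against 1172 and 1036 CPM. No group sum overlapped between labels, and labelled WT replicate 1 was the highest library in each.

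Gbp3, a GBP of the chromosome 3 cluster, had the largest difference of the 10. Its levels were 36.1 and 32.3 CPM under the WT label and 16.8 and 18.8 CPM under the KO label. The 2 groups were well apart, with close replicates on both sides. Its mean was 1.92-fold lower under the KO label, with a log2 fold change of −0.94 (SE 0.16, 95% limits −1.32 and −0.56), and an adjusted p of 0.0883 by edgeR.

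Gbp2, which coats parasite vacuoles, stood at 588 and 405 CPM under the WT label and at 338 and 303 CPM under the KO label. Labelled WT replicate 1 was 1.45-fold above labelled WT replicate 2, and the groups did not overlap. The log2 fold change was −0.63 (SE 0.18, adjusted p = 0.247 by edgeR).

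Gbp7, known for assembling the phagocyte oxidase and for defence against bacteria, stood at 87.0 and 57.0 CPM against 39.3 and 55.3 CPM. The groups were apart only narrowly, since the second labelled KO replicate lay just under the second labelled WT replicate. Its log2 fold change was −0.60 (SE 0.25, adjusted p = 0.374 by edgeR). Gbp7 shares 637 bases of exon with a processed pseudogene on its strand, Gm43802, whose counts were 4 and 5 under the WT label and 95 and 4 under the KO label. Labelled KO replicate 1, with the 95 counts, was also the library with the lowest Gbp7, at 523 counts. Whether reads of Gbp7 were assigned to the pseudogene there was not tested.

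Gbp6, of the chromosome 5 cluster, stood at 114 and 59.5 CPM against 49.7 and 59.8 CPM. Its groups overlapped, and labelled WT replicate 1 alone stood high, 1.92-fold above its replicate. The log2 fold change was −0.66 (SE 0.29, adjusted p = 0.402 by edgeR). Of the 31-base words in its transcripts, 74.2% also occur in other genes, mostly Gm43302, which overlaps it on the same strand, and Gbp10. Summed with both, it stood at 172 and 102 CPM against 87.3 and 94.97 CPM. The sum no longer overlapped between labels, with a log2 fold change of −0.59 (SE 0.23, adjusted p = 0.357 by edgeR).

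**Figure D1:**
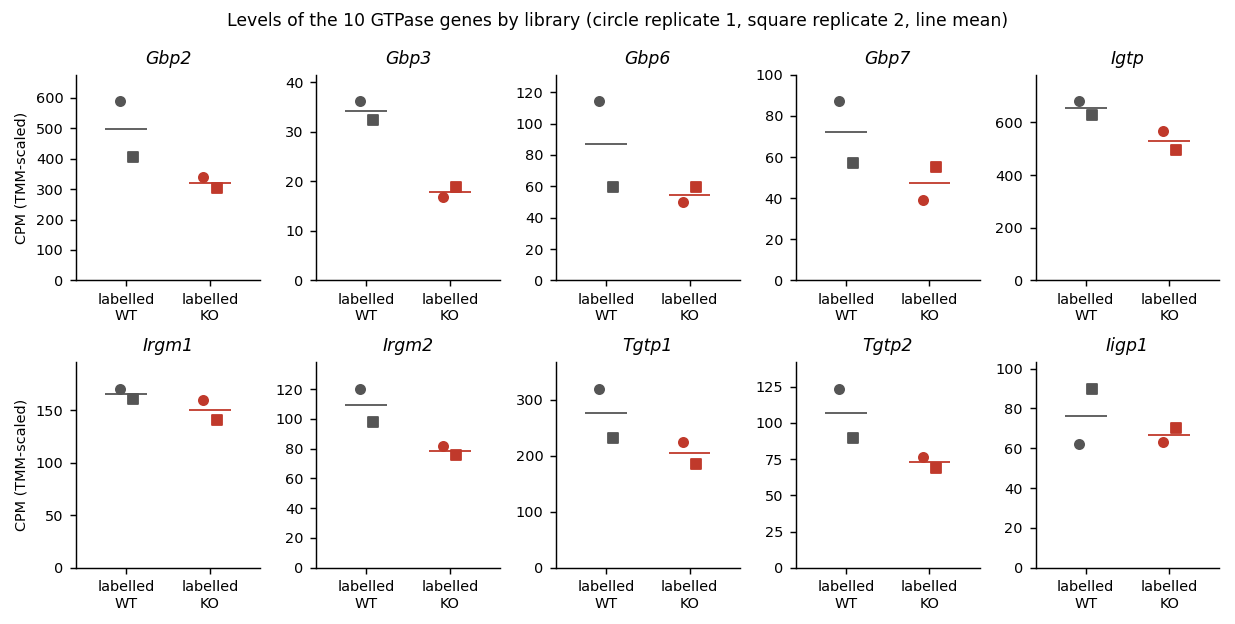
CPM scaled by TMM (vertical axes, linear from 0) of each of the 10 genes in the 2 libraries labelled WT (grey) and the 2 labelled KO (red), circles for replicate 1, squares for replicate 2 and lines for group means. In Gbp3 the groups are far apart (36.1 and 32.3 against 16.8 and 18.8), while in Gbp6 and Iigp1 they overlap.

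Among the regulatory IRGs, Igtp was the most abundant of all 10 in counts, at 680.25 and 629 CPM under the WT label and 567 and 496 CPM under the KO label. Irgm2, its neighbour, stood at 120.3 and 98.2 CPM against 82.0 and 75.5 CPM. Irgm1 stood at 171 and 161 CPM against 159.55 and 141 CPM. None of the 3 overlapped between labels, but for Irgm1 the gap between the nearest libraries was under 2 CPM.

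The log2 fold changes were −0.47 for Irgm2 (SE 0.14, adjusted p = 0.244 by edgeR), −0.30 for Igtp (SE 0.12, adjusted p = 0.374) and −0.14 for Irgm1 (SE 0.11, adjusted p = 0.646). The interval of Irgm1 ran from −0.41 to 0.12. The 3 regulators thus had unequal estimates, and their differences from each other were not tested. Igtp and Irgm2 share 162 bases of exon on the same strand, and 15.9% of the 31-base words of Igtp occur in Irgm2. Summed, they stood at 801 and 728 CPM against 649 and 571 CPM, a log2 fold change of −0.32 (SE 0.12, adjusted p = 0.351 by edgeR).

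Tgtp1 and Tgtp2 are near-identical copies on chromosome 11, so their separate counts are uncertain. Their coding sequences, each of 1245 bases in GENCODE M21, differ at 4 positions and are 99.68% identical. Counted from the A of the start codon, with the Tgtp1 base first, these are G270C, C408T, C729T and C735A. Of the 31-base words of Tgtp1, 83.2% occur in Tgtp2, so most reads of one could have come from the other. The stretch from coding position 711 to 751 shows the last pair of differences, in capitals.
Tgtp1: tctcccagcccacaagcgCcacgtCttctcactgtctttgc
Tgtp2: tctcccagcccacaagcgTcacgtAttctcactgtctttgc

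Tgtp1 stood at 319.8 and 232 CPM under the WT label and at 224 and 185 CPM under the KO label. Tgtp2 stood at 124 and 89.5 CPM against 76.5 and 69.1 CPM. Both kept the same order of libraries, highest in labelled WT replicate 1 and lowest in labelled KO replicate 2. Summed into 1 gene they stood at 443 and 322 CPM against 300.2 and 254 CPM, without overlap. The log2 fold change of the sum was −0.47 (SE 0.17, adjusted p = 0.334 by edgeR), between −0.43 for Tgtp1 and −0.55 for Tgtp2.

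Iigp1, an effector IRG on chromosome 18, ordered its libraries differently from the rest. It stood at 62.2 and 89.9 CPM against 63.3 and 70.3 CPM. Its groups overlapped, and it was the 1 gene of the 10 in which labelled WT replicate 1 was the lowest library. The log2 fold change was −0.19 (SE 0.19, 95% limits −0.64 and 0.26, adjusted p = 0.733 by edgeR).

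The 2 libraries labelled WT differed from each other in these genes. Replicate 1 was the higher in 9 of 10, and in 4 of 10 (Gbp6, Gbp7, Tgtp1 and Iigp1) the gap between the labelled WT replicates was larger than the difference between labels. Without labelled WT replicate 1 the median log2 fold change over the 10 genes was −0.28, and Gbp2 had −0.33, Gbp7 −0.26, Tgtp2 −0.29, Tgtp1 −0.18 and Gbp6 −0.11. Without labelled WT replicate 2 the median was −0.71. In that fit Gbp2 had −0.88, Gbp3 −1.02, Gbp6 −1.06 and Tgtp2 −0.76, and Iigp1 turned to 0.10. Gbp3 moved least in proportion, between −1.02 and −0.85 when any one library was dropped. Each such fit takes its spread from the 2 libraries of the other label, and assumes that the lone library varies like them.

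**Figure D2:**
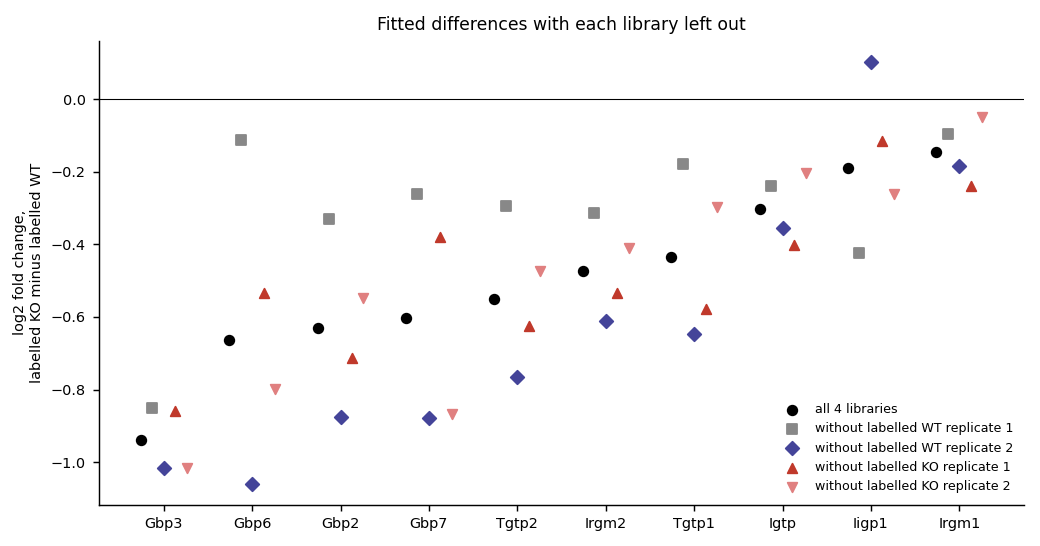
Fitted log2 fold change, labelled KO minus labelled WT (vertical axis), of the 10 genes with all 4 libraries (black circles) and without labelled WT replicate 2 (blue diamonds), labelled KO replicate 1 (dark red) or labelled KO replicate 2 (light red). Grey squares are without labelled WT replicate 1. In Gbp6 (−0.11) and Gbp2 (−0.33), among others, the grey square is the gene's own point nearest to 0, and in Iigp1 (−0.42) the farthest. Gbp3 stays between −1.02 and −0.85.

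Between the families, the 4 GBP genes had log2 fold changes of −0.94 to −0.60 and the 6 IRG genes of −0.55 to −0.14. The difference between the families was not tested, and the ranges overlapped without labelled WT replicate 1 (Gbp6 −0.11 and Iigp1 −0.42) and without labelled KO replicate 1 (Gbp7 −0.38 and Tgtp2 −0.62). Of 19 other genes named for these families or related to them, 15 were tested, 11 were negative and 4 positive, with a median of −0.29. None passed by edgeR. At an unadjusted p below 0.05, 4 were lower and 1 higher, where 7.23% and 5.7% of all genes were. Negative estimates made up 51.9% of all genes tested. DESeq2 called Gbp5 lower, where it called 1.26% of genes lower, and limma on log2 FPKM called none. Both libraries labelled KO lay below both labelled WT in 7 of the 15 and above in 1, where 23.3% and 21.5% of all genes did.

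Gbp5, known for promoting inflammasome assembly, stood at 188 and 134 CPM under the WT label and 88.6 and 105 CPM under the KO label, a log2 fold change of −0.73 (SE 0.18, adjusted p = 0.191 by edgeR). The IRG-like genes 9930111J21Rik1 and 9930111J21Rik2 stood at 14.1 and 13.6 against 6.02 and 8.65 CPM, and at 18.0 and 17.1 against 7.44 and 10.7 CPM. Their log2 fold changes were −0.92 (SE 0.22) and −0.94 (SE 0.21). In these 3 genes the groups did not overlap. Without labelled WT replicate 1, Gbp5 had −0.46.

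Gbp4 stood at 203 and 152 CPM under the WT label and 112 and 124 CPM under the KO label, without overlap, with a log2 fold change of −0.59 (SE 0.16, adjusted p = 0.216 by edgeR). Gbp9 had −0.42 with overlapping groups, and Gbp10 −0.40. Of the 6 other GBPs tested, Gbp11 alone had a positive estimate. Gbp8 had a log2 fold change of −0.06, and Gbp11, at 3.92 and 2.77 against 5.64 and 5.68 CPM, one of 0.77 (SE 0.27, adjusted p = 0.313 by edgeR). Gbp4, Gbp8, Gbp9, Gbp10 and Gbp11 were chosen after their values were seen. The IRGs Ifi47 and Gm12250, also chosen then, had −0.18 and −0.16. Gbp2b, next to Gbp2, had 4 counts in labelled WT replicate 2 and 0 in the other 3 libraries, where a count of 0 allows at most 0.231 CPM.

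**Figure D3:**
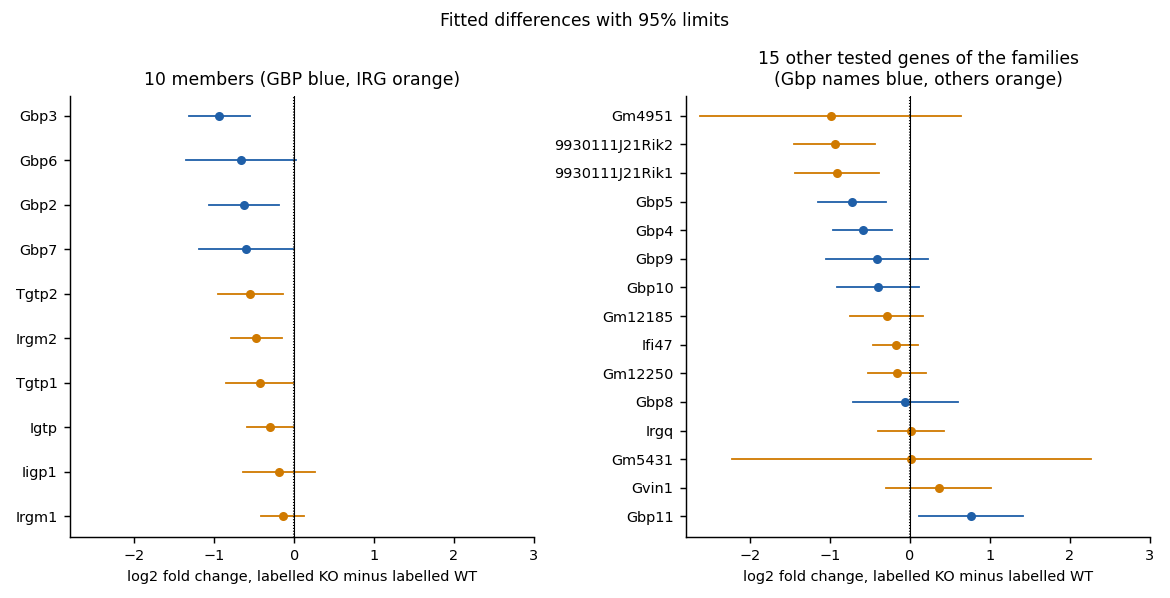
Fitted log2 fold change, labelled KO minus labelled WT (horizontal axis), with 95% limits, of the 10 genes (left) and of 15 other tested genes of these families (right), GBP names in blue and the others in orange, with 0 as a solid line and the median of all genes tested (−0.01) dotted. All 10 points on the left are below 0, from −0.94 for Gbp3 to −0.14 for Irgm1, and the right panel reaches from −0.99 for Gm4951 to 0.77 for Gbp11.

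Levels between genes were compared per length, on the deposited FPKM (counts scaled to gene length and library size). In the libraries labelled WT, Gbp2 was highest at 174 ± 48.3 FPKM (SD, n = 2), then Igtp at 127 ± 9.02, Tgtp1 at 72.0 ± 17.3, Tgtp2 at 33.3 ± 8.08, Iigp1 at 24.1 ± 5.84 and Irgm1 at 20.1 ± 1.14. Gbp7 (11.0), Irgm2 (10.4), Gbp6 (9.74) and Gbp3 (5.6) followed. Ranges of neighbours overlapped for Tgtp2 with Iigp1, Iigp1 with Irgm1, Gbp7 with Irgm2 and Irgm2 with Gbp6, and were apart for the others. Under the KO label the order was kept except that Irgm2 (7.56) stood before Gbp7 (7.29), with overlapping ranges, and Gbp2 (114) and Igtp (104) overlapped too.

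The order rests on the length used. The deposited values imply 5121 bases for Igtp, where its exons in GENCODE M21 cover 2022, and 2830 against 2516 bases for Gbp2. Per kilobase of those exons Igtp came first, at 324 ± 17.8 CPM per kilobase under the WT label, and Gbp2 second at 197 ± 51.6 (SD, n = 2). Irgm2 moved from the eighth place to the fifth on that scale, and Iigp1 from the fifth to the eighth.

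Above these genes in the pathway, the tested ligands had positive estimates and most receptor chains negative ones. Ifng, the gene of interferon gamma, stood at 65.8 and 93.8 CPM under the WT label and 93.5 and 161 CPM under the KO label, a log2 fold change of 0.68 (SE 0.27, adjusted p = 0.374 by edgeR). The groups overlapped by less than 1 CPM. One library moved the estimate: it was 0.23 without labelled KO replicate 2, 0.45 without labelled WT replicate 1 and 1.02 without labelled KO replicate 1. Tnf, a cytokine that can add to interferon gamma responses, stood at 26.7 and 27.6 against 40.1 and 43.9 CPM (log2 fold change 0.63, SE 0.15, adjusted p = 0.177). The other 11 listed ligands and inducing cytokines were too low to test, 4 of them at 0 in all 4 libraries. Of the 2 tested, 0 passed by edgeR, DESeq2 or limma and 2 were higher at an unadjusted p below 0.05, where 5.7% of all genes were.

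Of 8 tested receptor chains and kinases, 7 were negative, with a median of −0.38, and none passed by edgeR. At an unadjusted p below 0.05, 6 were lower. Over all genes tested, 51.9% were negative and 7.23% lower at that p. Ifngr1, the ligand-binding chain of the interferon gamma receptor, stood at 133 and 122 CPM under the WT label and 72.6 and 64.7 CPM under the KO label, 1.86-fold lower. Its groups were far apart, and its log2 fold change of −0.89 (SE 0.12) missed the threshold with an adjusted p of 0.0502 by edgeR. DESeq2 called it with an adjusted p of 1.13e-05, and edgeR did with no filter on low counts (adjusted p = 0.0158). It was not called by edgeR with another scaling of the libraries (adjusted p = 0.0517). By limma it was not called either, on log2(FPKM + 1) (adjusted p = 0.108) or log2(FPKM + 0.1) (0.099). With single libraries left out its log2 fold change ran from −0.98 to −0.81. Over its alternatives the log2 fold change stayed negative. Ifngr2, the signalling chain, stood at 24.2 and 13.9 against 19.4 and 16.96 CPM and overlapped, with a log2 fold change of −0.06 that changed sign with single libraries left out.

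The type I interferon receptor chains also lay lower under the KO label. Ifnar1 stood at 106 and 89.7 against 61.9 and 70.3 CPM (log2 fold change −0.56, SE 0.14, adjusted p = 0.186 by edgeR). Ifnar2 stood at 61.2 and 64.6 against 46.4 and 41.6 CPM (log2 fold change −0.52, SE 0.14, adjusted p = 0.218). Neither overlapped between labels.

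Of 12 tested transcription factors of the response, 9 were negative, with a median of −0.29, where 51.9% of all genes tested were negative. None passed by edgeR, DESeq2 or limma, and 2 were lower at an unadjusted p below 0.05, where 7.23% of all genes were. Irf1, itself induced by interferon gamma, stood at 150.4 and 110.3 against 99.8 and 105 CPM. Its log2 fold change was −0.35 (SE 0.16, adjusted p = 0.425 by edgeR). Labelled WT replicate 1 was its high library, as in 9 of the 10 GTPase genes, and without it Irf1 had −0.10. Irf9, the DNA-binding part of the complex that type I interferon activates, had a log2 fold change of −0.55 (SE 0.15), and Irf2, which competes with IRF1, one of −0.54 (SE 0.23). Irf2 had −0.16 without labelled WT replicate 1. Leaving out labelled WT replicate 2 gave −0.84.

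Of 13 inhibitors and feedback genes 7 were negative and 6 positive, with a median of −0.08, and none passed by edgeR. At an unadjusted p below 0.05, 3 were lower and 2 higher, and DESeq2 called Usp18 lower. Among all genes tested, 51.9% were negative, and 7.23% were lower and 5.7% higher at that p. DESeq2 called 1.26% of genes lower. Usp18, which blocks the type I receptor and removes ISG15, stood at 24.7 and 51.1 against 15.9 and 15.7 CPM, and Isg15 at 3.53 and 7.36 against 2.63 and 2.42 CPM. In both, labelled WT replicate 2 was the high library, the reverse of most of the GTPase genes. Cish, a feedback gene of cytokine receptors that use STAT5, stood at 39.1 and 118 against 219 and 193 CPM (log2 fold change 1.38, SE 0.44, adjusted p = 0.274 by edgeR), with its labelled WT replicates 3-fold apart. It passed with either of them left out, at 0.81 without labelled WT replicate 1 (adjusted p = 0.0236 by edgeR) and at 2.40 without labelled WT replicate 2 (adjusted p = 4.9e-05). Usp18 had −0.65 without labelled WT replicate 2. Leaving out labelled WT replicate 1 gave −1.69.

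**Figure D4:**
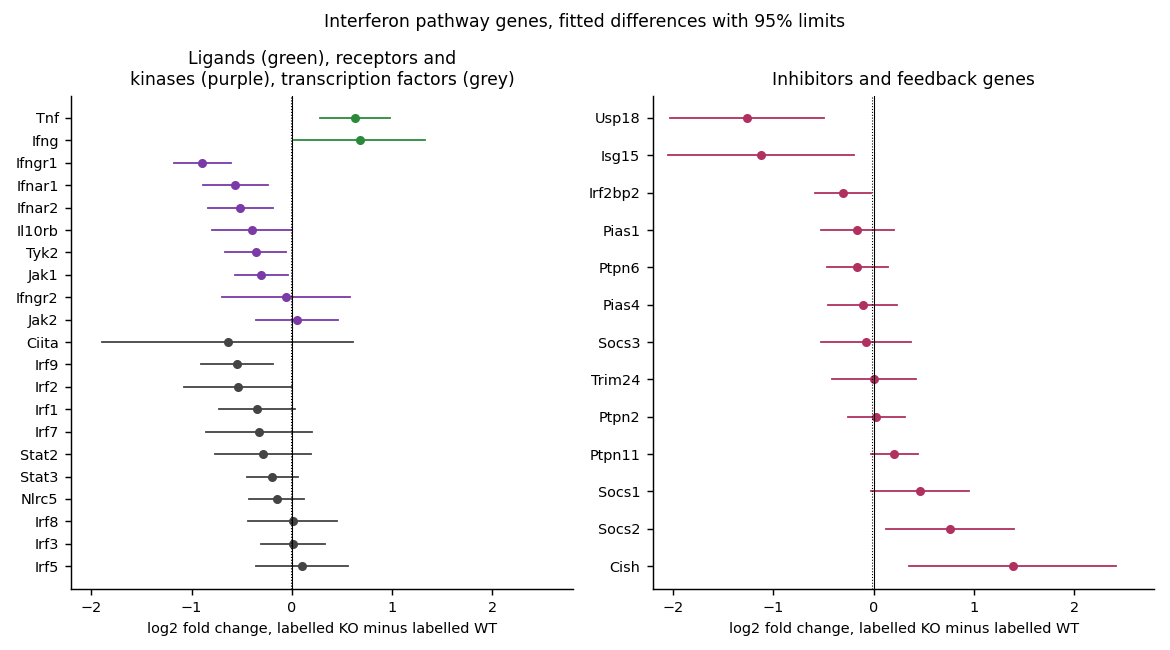
Fitted log2 fold change, labelled KO minus labelled WT (horizontal axis), with 95% limits, of tested ligands (green), receptor chains and kinases (purple), 11 of the 12 tested transcription factors (grey) and inhibitors (right panel). Tnf and Ifng lie above 0 (0.63 and 0.68), and 7 of 8 receptor chains and kinases below, with Ifngr1 lowest at −0.89.

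Of 22 other tested targets of interferon gamma, 19 were negative, with a median of −0.41, none passed by edgeR, and 8 were lower and 0 higher at an unadjusted p below 0.05. Cxcl10, a chemokine gene, stood at 4.46 and 9.89 against 1.5 and 1.45 CPM (log2 fold change −2.28, SE 0.44, adjusted p = 0.117 by edgeR), and DESeq2 called it alone among these. By edgeR it passed with no filter on low counts (adjusted p = 0.0273) and without labelled WT replicate 1 (0.0017). Tapbp, which loads peptides on MHC class I, had −0.49 (SE 0.13) and Parp14, an ADP-ribosyltransferase, −0.44 (SE 0.12). Both libraries labelled KO lay below both labelled WT in 14 of the 22. The shares over all genes tested were 51.9% negative, 7.23% lower and 5.7% higher at an unadjusted p below 0.05, and 23.3% with both libraries labelled KO below.

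Of 17 genes for proteins that GBPs and IRGs work with, such as the LC3 conjugation machinery that directs them to vacuoles, 9 were negative and 8 positive, with a median of −0.03. None passed by edgeR, DESeq2 or limma, and 1 was lower and 3 higher at an unadjusted p below 0.05. The shares of all genes tested were 51.9% negative, and 7.23% lower and 5.7% higher at that p. Ube2l6, the conjugating enzyme for ISG15, stood at 10.9 and 10.3 against 23.6 and 16.7 CPM (log2 fold change 0.92, SE 0.21, adjusted p = 0.166 by edgeR). Traf6, a ubiquitin ligase, had 0.40 (SE 0.11) and the autophagy receptor gene Sqstm1 −0.36 (SE 0.10).

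The genes with the profile most like the mean of the 10 over the 4 libraries were sought among 9224 genes with a mean of at least 10 CPM, by root-mean-square distance of centred log2 CPM. The 5 nearest were the MHC class I pseudogene H2-T-ps (distance 0.0231), Siae (0.0262), Dmac2 (0.0298), Zfp831 (0.0306) and Ddx58 (0.0309), which encodes the RNA sensor RIG-I. Among the 10 themselves, Irgm2 was nearest to the mean profile (0.0423) and Iigp1 farthest (0.339). With 4 libraries, such nearness is a description.

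Library totals ran from 12967251 to 17316284 counts. The labelled cell type was checked on its markers: Cd8a stood at 542 and 523 CPM under the WT label and 547 and 511 CPM under the KO label. The 8 CD8 T cell markers summed to 3444 and 3293 against 3027.5 and 2842 CPM. Of these, 4 lay lower in both libraries labelled KO, Cd3d (−0.52), Cd3g (−0.41), Thy1 (−0.31) and Lck (−0.30 on the log2 scale), and 4 overlapped. Summed markers of myeloid cells, in which GBPs and IRGs are also inducible, were 5.76 and 10.01 against 6.77 and 6.78 CPM and overlapped, with Cd14, Itgam and Adgre1 at 0 in at least 1 library. B cell markers summed to 426 and 364.5 against 303 and 268 CPM, of which Ighm made 406, 345, 286 and 257. Stromal and endothelial markers summed to 37.5 and 30.7 against 18.0 and 19.0 CPM, nearly all from Pecam1, with Col3a1 and Cdh5 at 0 in all 4 libraries. The CD8 T cell, B cell and stromal sums lay lower in both libraries labelled KO, as 8 of the 10 GTPase genes did, and their part in those values was not tested. Sums of dendritic, NK and CD4 or regulatory T cell markers overlapped between labels. Of the 5 CD4 or regulatory markers, 4 lay higher in both libraries labelled KO, among them Cd4 at 3.0 and 4.71 against 10 and 5.12 CPM, and Zbtb7b lay lower. Low levels were seen for Foxp3, at 1.23 and 0.71 against 2.33 and 1.32 CPM. Cd40lg was low too, at 0.999 and 1.12 against 1.20 and 1.52 CPM. The part of these markers was not tested either. Among all genes tested, 23.3% lay lower and 21.5% higher in both libraries labelled KO.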

How the data were processed

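RNA of 4 libraries of stimulated CD8+ T cells was analysed, 2 for each genotype label. Per the file headers, the authors deposited whole-number counts per gene, with no normalization, and FPKM values. Kallisto and the build GRCm38 are named per the submitters' processing notes, with no version or role. Not given in the sources used here: how reads were counted, with or without strand, and how overlapping genes divided them. A further 8 value columns match no sample and were not used.

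After filterByExpr (13528 genes kept) and TMM scaling, both labels were compared by the two-sided quasi-likelihood test in edgeR 4.0.16 under R 4.3.3. Differences are labelled KO minus labelled WT, with Benjamini-Hochberg adjustment over all genes tested and a threshold of 0.05. SE is the log2 fold change over the square root of F. Adjusted p values rest on spread pooled over genes, since 2 against 2 libraries cannot reach 0.05 by exact permutation. The labels call the replicates biological, and p values measure only the spread between these libraries. Alternatives used DESeq2 1.42.0, limma 3.58.1 on log2(FPKM + 1) and log2(FPKM + 0.1), other scaling and filters, a replicate block, each library left out, and summed copies. The fit was tested on simulated data.

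Gene models and 31-base words came from GENCODE M21 (GRCm38), in which 9 of the 10 genes have the deposited position. Promoters came from RefSeq (GRCm38.p6). All 10 genes are named, and from each list the 3 genes with the smallest p plus Irf1, Ifng, Ifngr1 and Ifngr2. Some genes counted in the lists are not reported here by name. 1 listed name, Fam26f, matched no row. The members and lists were chosen with earlier results of these data known. The limit given for a 0 corresponds to 3 counts and covers counting error only.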

Additional observations from a re-analysis of the deposited data

How the results depend on the processing

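The number of genes called over the whole table was 28, and 253 by DESeq2, 146 with no filter on low counts, 5 on log2(FPKM + 1) and 4 on log2(FPKM + 0.1). It ran from 8 to 304 with single libraries left out, 304 of them without labelled WT replicate 1 and 8 without labelled KO replicate 2. Of the 10 GTPase genes 0 were called, 2 by DESeq2 and 1 with no filter (Gbp3). DESeq2 called 253 of 13445 genes with an adjusted p, and the fit with no filter 146 of 21960. The median log2 fold change of the 10, −0.51, ran from −0.71 to −0.28 with single libraries left out, and from −0.55 to −0.45 in the other fits. The cause of these shifts was not tested. Over the alternatives for single GTPase genes, 117 of 125 values kept direction and side of the threshold, 7 passed it, and 1 reversed: Iigp1, which ran from −0.42 without labelled WT replicate 1 to 0.10 without labelled WT replicate 2. Ifngr2 ran from −0.41 without labelled WT replicate 2 to 0.39 without labelled WT replicate 1, and reversed to 0.04 without labelled KO replicate 2 and 0.0017 on log2(FPKM + 0.1).

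With the replicate number as a block 123 genes were called, 0 of the 10, and, among the pathway genes, Ifngr1 (adjusted p = 0.0196), Cxcl10 (0.0159) and Cish (0.0262). Deviations of same-numbered libraries correlated at −0.17 over genes, which with 2 libraries a group cannot show whether the numbers mark a pairing. The labels do not state a pairing. The crossed pairing, added after the data were seen, called 12 genes and 0 of the 10, as did 0 of the 10 with Igtp and Irgm2, or Gbp6, Gbp10 and Gm43302, summed. With 2 libraries a group, the 95% limits included 0 for Irgm1 (−0.14), for Iigp1 (−0.19) and for Gbp6 (−0.66, limits −1.35 and 0.02).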
